A study of Mus musculus with 10 samples.

Results

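The kappa light chain rearrangements of peritoneal cavity B-1a cells were compared between wild-type (WT) and Igll1-/- mice. These were chosen by genotype, tissue and locus from the sample labels, and they make up 4 of the 10 libraries of the study, 2 from WT and 2 from Igll1-/- mice. Igll1 encodes lambda5, a component of the surrogate light chain, so pre-B cells of Igll1-/- mice form no normal pre-B cell receptor. All mice were C57BL/6 and 6 to 8 weeks old, and B-1a cells were sorted by surface markers that included low B220 and CD5. The study used the comparison to ask whether B-1a cells that developed without surrogate light chain kept the light chain usage of WT B-1a cells. A further 2 libraries, from peritoneal B-2 cells of WT mice, entered the fits and are given as a reference. Neither Igll1 nor any marker of the sort is measured in a table of Igk rearrangements, so genotype and cell type could not be checked against the data.

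B-1a cells are self-renewing B cells of the body cavities, many of which bind self-antigens and bacterial antigens. A kappa chain is made by joining 1 V gene to 1 J gene, and the joint encodes CDR3, the loop at the centre of the binding site. Because Igk can rearrange again on the same allele, later joins use V genes further upstream with J genes further downstream, from IGKJ1 towards IGKJ5, while IGKJ3 is not functional. Some heavy chains of B-1a cells pair with 1 preferred light chain. IGKV4-91 is the partner of VH12 and IGKV14-126 that of VH11 in receptors for phosphatidylcholine, and IGKV7-33 is the partner of the T15 heavy chain in antibodies to phosphorylcholine.

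Each deposited row has a V gene, J gene and CDR3 amino acid sequence with its number of reads, and was counted as a clonotype. WT B-1a libraries held 7234 and 6963 clonotypes, and Igll1-/- B-1a libraries 5701 and 6940, from 214000 to 275095 reads. Some rows shared V gene, J gene and CDR3. They were joined for overlap, well-read clonotypes and reads per clonotype, which for overlap left 7116 and 6856 in WT and 5596 and 6825 in Igll1-/- B-1a libraries. Replicates differed by more than counting noise over V genes in both groups, with a chi-square of 301 between the WT and 779 between the Igll1-/- libraries on 101 degrees of freedom. The libraries came from genomic DNA without molecular identifiers, so a read count depends on cells and on amplification, and fewer cells of a clone and weaker amplification of its template cannot be told apart. Intervals below cover counting error only.

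Some clonotypes described below are shown here by their CDR3 sequences, because V gene and J gene alone do not identify a clonotype. The first 3 were larger in WT and the others in at least 1 Igll1-/- library.
IGKV14-126 with IGKJ2: LQHGESPYT
IGKV4-91 with IGKJ5: QQGSSIPLT
IGKV7-33 with IGKJ5: AQFYSYPLT
IGKV15-103 with IGKJ5: QQGQSYPLT
IGKV1-110 with IGKJ1: SQSTHVPWT
IGKV3-7 with IGKJ1: QHSWEIPWT
IGKV3-7 with IGKJ1, another clonotype: QHSWEIPRT
All are 9 residues long, and the pair with IGKV3-7 and IGKJ1 differs at residue 8.

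V gene usage differed by loss of a small set of genes, among them the 3 known B-1a partners, and by gain of another set. Of 84 V genes tested, 15 passed an adjusted p of 0.05 (17.9%), with 8 lower (9.52%) and 7 higher (8.33%) in Igll1-/- B-1a cells, and 25 had an unadjusted p under 0.05 (29.8%). Clonotypes were counted once each and tested by quasi-likelihood in edgeR, with p-values adjusted by Benjamini-Hochberg. The 8 lower genes together held 19.4% and 19.9% of clonotypes in the WT libraries and 5.68% and 5.72% in the Igll1-/- libraries. The 7 higher genes held 12.3% in both WT libraries and 24.5% and 27.4% in the Igll1-/- libraries. These sums describe genes chosen by the same comparison. In WT B-2 cells the same sums were 7.69% and 7.80% for the lower and 13.7% and 12.8% for the higher genes.

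IGKV14-126 fell most, from 4.89% and 5.29% of clonotypes in WT to 0.684% (Wilson 95% confidence interval 0.501 to 0.934) and 0.735% (0.559 to 0.965) in Igll1-/- libraries. By edgeR it changed by −2.84 ± 0.22 on the log2 scale (SE, n = 2 per genotype, adjusted p = 4.0e-06). IGKV7-33, the T15 partner, made up 76 and 78 clonotypes in WT against 16 and 7 in Igll1-/- libraries, or 1.05% and 1.12% against 0.281% and 0.101% (log2 fold change −2.53 ± 0.50, edgeR adjusted p = 0.0053). IGKV4-91, the VH12 partner, went from 6.54% and 6.03% to 2.77% and 3.17% (log2 fold change −1.08 ± 0.16, edgeR adjusted p = 0.00055). All 3 stood lower in both Igll1-/- libraries than in both WT libraries, and IGKV4-91 stayed above its 1.44% and 1.30% in WT B-2 cells. IGKV7-33 and IGKV14-126 were below their B-2 levels, which were 0.624% and 0.546% for the former and 1.65% and 1.47% for the latter. The position relative to B-2 cells was not tested.

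The other genes that fell were IGKV9-128 (log2 fold change −2.35), IGKV1-122 (−2.35), IGKV12-89 (−2.09), IGKV3-5 (−1.46) and IGKV8-28 (−1.22). IGKV12-89 held 65 and 46 clonotypes in WT and 11 and 12 in Igll1-/- libraries. IGKV1-122 held 52 and 31 against 10 and 4. These genes were each under 5% of clonotypes, and both Igll1-/- libraries lay below both WT libraries for each of them.

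Among the genes that rose, IGKV15-103 took 1.87% and 1.97% of clonotypes in WT and 6.03% and 4.57% in Igll1-/- libraries (log2 fold change 1.47 ± 0.20, edgeR adjusted p = 0.00034). IGKV3-10 rose from 28 and 53 clonotypes to 81 and 138 (log2 fold change 1.57 ± 0.43), and IGKV5-39 from 32 and 34 to 54 and 106 (1.41 ± 0.41). IGKV4-53 rose from 1.55% and 1.46% to 2.54% and 3.18% (0.93 ± 0.25), and IGKV14-111 from 1.48% and 1.57% to 2.35% and 2.97% (0.81 ± 0.22). IGKV3-7 and IGKV1-110 rose as well, by log2 fold changes of 1.18 and 0.81. For each of the 7, both Igll1-/- libraries were above both WT libraries. Groups that do not overlap were common in the whole table, in 43 of 84 V genes (51.2%).

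The call held for IGKV14-126, IGKV9-128, IGKV12-89, IGKV15-103 and IGKV1-110 under every alternative that gave them a value, and was lost for the other 10 under at least 1, for IGKV4-91 after near-identical clonotypes were merged (log2 fold change −0.56, edgeR adjusted p = 0.12). It was kept in only 5 of 13 alternatives for IGKV3-5, 5 of 14 for IGKV8-28 and 8 of 14 for IGKV5-39. The rest of the 10 kept it in 9 to 13 of 14. IGKV9-128 could not be tested in productive clonotypes, of which it held 3 and 5 in WT and 2 and 1 in Igll1-/- libraries. Leaving out 1 library changed the count, since 7 genes passed without either WT replicate 1 or WT replicate 2, 24 without Igll1-/- replicate 1 and 31 without Igll1-/- replicate 2.

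**Figure D1:**
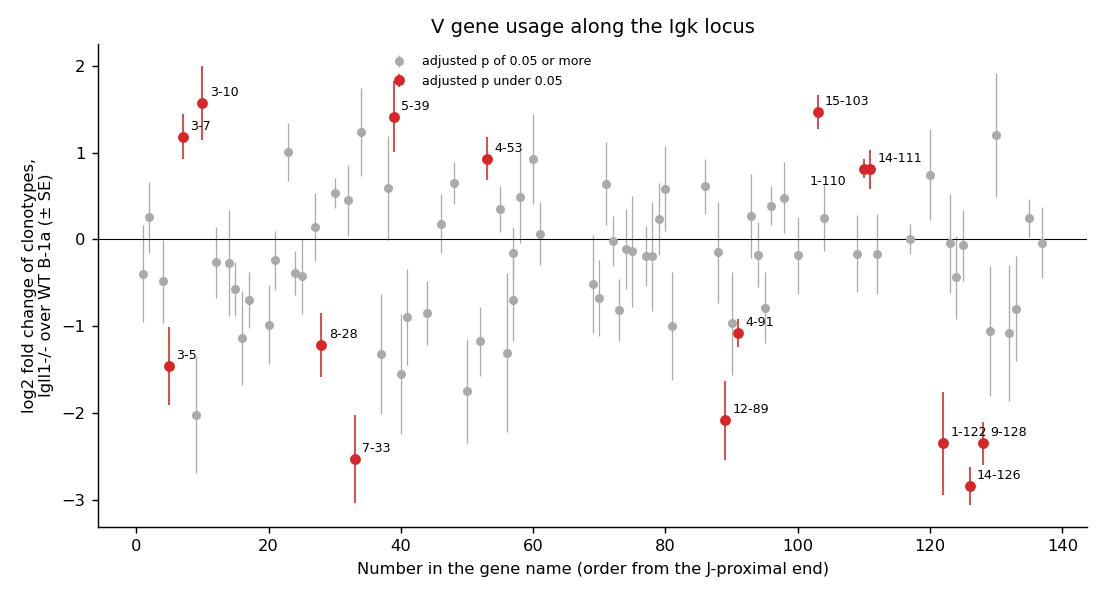
Log2 fold change of clonotypes in Igll1-/- over WT B-1a libraries (vertical axis, bars are standard errors, n = 2 per genotype) for the 84 V genes tested, placed by the number in the gene name, which counts from the J-proximal end (horizontal axis). Red points passed an adjusted p of 0.05, and IGKV14-126 is lowest at −2.84.

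At the level of V families, 5 of 17 tested passed (29.4%), IGKV15 and IGKV3 higher (11.8%) and IGKV7, IGKV9 and IGKV14 lower (17.6%) in Igll1-/- B-1a cells, and 7 had an unadjusted p under 0.05 (41.2%, edgeR). IGKV15 and IGKV7 hold 1 gene each, IGKV15-103 and IGKV7-33. IGKV9 fell from 4.87% and 5.67% of clonotypes to 1.49% and 2.93% (log2 fold change −1.24 ± 0.24, edgeR adjusted p = 2.4e-05), with 1 of its 5 tested genes, IGKV9-128, passing. Nearly all IGKV9-128 clonotypes were unproductive, 258 and 301 in WT and 37 and 60 in Igll1-/- libraries. IGKV14 fell from 7.44% and 7.64% to 3.67% and 6.12% (−0.62 ± 0.20, edgeR adjusted p = 0.0097), with IGKV14-126 lower and IGKV14-111 higher among 4 tested genes. IGKV3 rose from 5.68% and 5.47% to 7.24% and 9.80% (0.61 ± 0.19, edgeR adjusted p = 0.0073), with IGKV3-7 and IGKV3-10 higher, IGKV3-5 lower and 5 others not passing. For these 5 families both Igll1-/- libraries lay on 1 side of both WT libraries, as they did for 8 of 17 families (47.1%).

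IGKV4, the largest family, was at 32.5% and 29.6% in WT and 30.9% and 26.8% in Igll1-/- libraries (log2 fold change −0.11 ± 0.10), so the groups overlapped. Of its 25 tested genes, IGKV4-53 was higher and IGKV4-91 lower. IGKV8 and IGKV6 overlapped too. IGKV1 (log2 fold change 0.31 ± 0.15), IGKV5 (0.50 ± 0.22) and IGKV12 (−0.41 ± 0.21) did not overlap between genotypes but did not pass the test (edgeR adjusted p = 0.089, 0.081 and 0.11). IGKV10, IGKV2, IGKV16 and IGKV11 had log2 fold changes of 0.09, −0.13, 0.24 and −0.07 and did not pass.

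Without IGKV9-128, IGKV14-126 and IGKV3-7, chosen after their values were seen, 3 families passed: IGKV7, IGKV15, and IGKV14 in the opposite direction, at 0.78 on the log2 scale (edgeR adjusted p = 0.0095). IGKV14 also lost its call without WT replicate 1, WT replicate 2 or Igll1-/- replicate 1, IGKV3 without either WT replicate and IGKV9 without WT replicate 2.

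**Figure D2:**
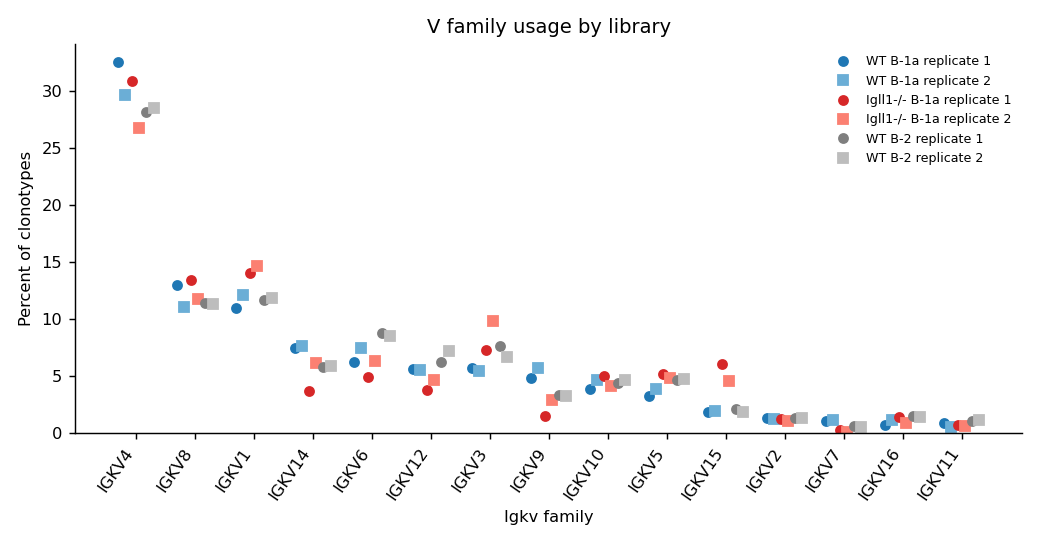
Percent of clonotypes (vertical axis) in each of the 15 Igkv families with at least 1% in a library (horizontal axis), with a point for each of the 6 libraries. IGKV15 stands at 6.03% and 4.57% for Igll1-/- B-1a cells, above 1.87% and 1.97% for WT B-1a cells.

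Position in the locus was read from the number in the IMGT name, which for 100 of the 103 V genes found could be set against RefSeq coordinates of GRCm38.p6 and ordered them identically by distance from the J genes. V genes numbered 71 to 99 held 22.6% and 22.2% of clonotypes in WT and 20.5% and 17.6% in Igll1-/- B-1a libraries. Both Igll1-/- libraries were thus lower, by 3.35 percentage points in the mean (exact permutation test, two-sided, p = 0.333, the smallest that 2 libraries against 2 allow). By reads the same stretch held 24.8% and 24.7% against 17.3% and 15.5%. It includes IGKV4-91, whose fall in percent of clonotypes given above was about as large as that of the whole stretch. IGKV12-89, also in it, changed by −0.597 percentage points in the mean. The stretch was not measured without these genes. With near-identical clonotypes merged the groups overlapped.

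The most J-distal genes, numbered 100 and above, held 29.1% and 31.3% of clonotypes in WT and 29.7% and 32.2% in Igll1-/- libraries, which overlapped. Lower IGKV14-126 and IGKV9-128 and higher IGKV15-103, IGKV1-110 and IGKV14-111 all lie there. The median V gene number was 73 and 74 in WT and 71 and 70 in Igll1-/- libraries. Of the 5 measures of position 3 (60.0%) separated the genotypes without overlap.

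IGKJ1, the J gene nearest the V genes, was used more and IGKJ2 less in Igll1-/- B-1a libraries. IGKJ1 made up 22.7% and 19.8% of clonotypes in WT and 24.9% and 28.5% in Igll1-/- libraries. IGKJ2 made up 23.3% and 26.1% against 20.2% and 21.2%. IGKJ5 was the most used J gene in all 4, at 51.5% and 51.6% against 51.7% and 47.8%, and overlapped. IGKJ1 and IGKJ2 did not overlap between genotypes, as was so for 3 of 5 J genes (60.0%), and each had the smallest p the design allows (exact permutation test, two-sided, p = 0.333, Benjamini-Hochberg adjusted p = 0.556 over 5 J genes). By reads the gap was wider, with IGKJ1 at 17.3% and 13.2% in WT and 21.8% and 29.3% in Igll1-/- libraries. Among clonotypes with at least 2 reads IGKJ1 overlapped.

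The V-J combinations show which joins the V genes changed in. Of 202 combinations tested, 21 passed (10.4%), 14 lower (6.93%) and 7 higher (3.47%) in Igll1-/- B-1a cells, and 52 had an unadjusted p under 0.05 (25.7%, edgeR). IGKV14-126 with IGKJ2 fell from 206 and 204 clonotypes to 10 and 11 (log2 fold change −4.10 ± 0.31, edgeR adjusted p = 3.3e-05). Its joins to IGKJ1 fell from 74 and 72 to 6 and 13 (−2.78 ± 0.43), and those to IGKJ5, from 64 and 86 to 22 and 26 (−1.47 ± 0.33). The differences between these changes were not tested. IGKJ2 took 58.4% and 55.4% of IGKV14-126 clonotypes in WT and 25.6% and 21.6% in Igll1-/- libraries, while IGKJ5 took 18.1% and 23.4% against 56.4% and 51.0%. In WT, LQHGESPYT alone held 18300 of 20275 and 17325 of 19381 reads of IGKV14-126 with IGKJ2. Whether other clonotypes of this pair were read variants of it, which would enter these counts and shares, was not tested.

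IGKV4-91 fell with IGKJ5, from 282 and 267 clonotypes to 68 and 149 (−1.20 ± 0.29, edgeR adjusted p = 0.025), and with IGKJ2, from 146 and 125 to 51 and 44 (−1.32 ± 0.30). Its share of IGKJ5 joins was 59.7% and 63.7% in WT and 45.9% and 68.0% in Igll1-/- libraries, with overlap. IGKV9-128 fell with IGKJ1 (−3.23 ± 0.54) and IGKJ5 (−2.31 ± 0.39).

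Of the 7 combinations that rose, 6 used IGKJ1, as did 65 of the 202 tested (32.2%). IGKV3-7 with IGKJ1 rose from 44 and 28 clonotypes to 117 and 254 (log2 fold change 2.50 ± 0.36, edgeR adjusted p = 0.0042). IGKJ1 took 24.6% and 24.3% of IGKV3-7 clonotypes in WT and 53.4% and 66.0% in Igll1-/- libraries. Of the reads of IGKV3-7 with IGKJ1, QHSWEIPRT held 7925 of 9091 in Igll1-/- replicate 1. QHSWEIPWT held 20562 of 23457 in Igll1-/- replicate 2. Whether other clonotypes of this pair were read variants of these was not tested. IGKV8-34 with IGKJ1 was rare in WT, at 2 and 3 clonotypes, no higher than the floor of 3 clonotypes used here. This pair stood at 32 and 37 in Igll1-/- libraries (3.89 ± 0.60, edgeR adjusted p = 0.0042), although IGKV8-34 over all J genes did not pass. Its fold change rests on WT counts at the floor. Among B-1a libraries only those of Igll1-/- mice reached the 10 counts of the filter. IGKV1-110 with IGKJ1 rose from 98 and 92 to 154 and 258 (1.26 ± 0.25), IGKV15-103 with IGKJ1 from 43 and 32 to 92 and 95 (1.50 ± 0.30), IGKV15-103 with IGKJ5 from 57 and 71 to 175 and 165 (1.59 ± 0.28), and IGKV3-10 with IGKJ1 from 9 and 16 to 33 and 48 (1.84 ± 0.49). Both Igll1-/- libraries were above both WT libraries in each, as on 1 side or the other in 105 of 202 combinations (52.0%).

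Without WT replicate 1 only 1 combination passed and without WT replicate 2 only 2, against 41 without Igll1-/- replicate 1 and 38 without Igll1-/- replicate 2. With near-identical clonotypes merged 9 passed, with reads counted 11, with at least 2 reads 12 and with at least 10 reads 8, and IGKV14-126 with IGKJ2 was the single named combination that passed under every alternative.

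**Figure D3:**
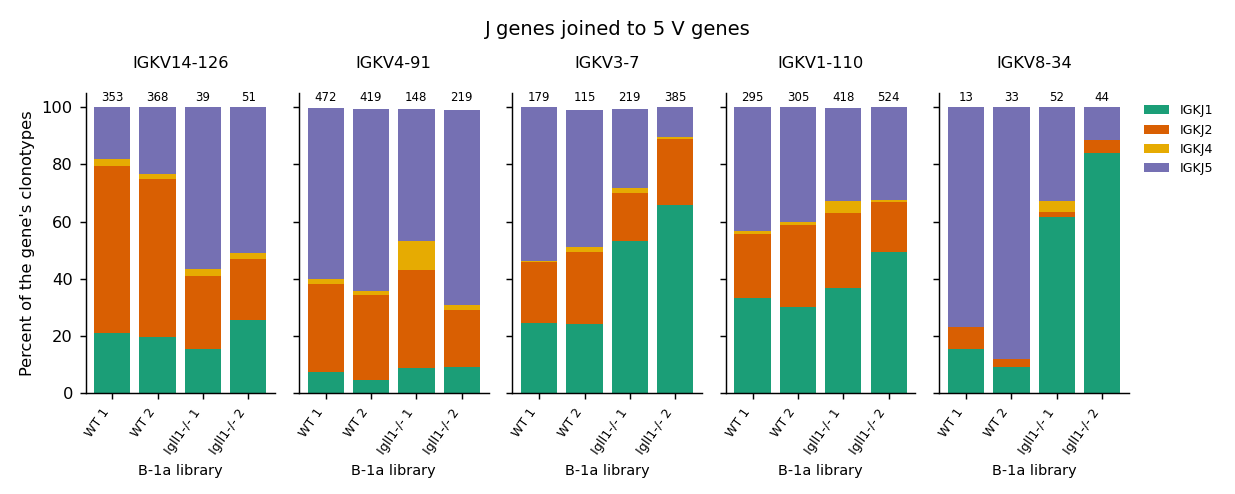
Percent of the clonotypes of 5 V genes joined to IGKJ1, IGKJ2, IGKJ4 and IGKJ5 (stacked bars, with IGKJ3 not drawn) in the 4 B-1a libraries. The number above a bar is the clonotypes of that V gene, such as 353 for IGKV14-126 in WT replicate 1, and IGKJ1 takes 66.0% of IGKV3-7 clonotypes in Igll1-/- replicate 2.

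CDR3 length was similar. CDR3s of 9 residues made up 75.1% and 77.5% of productive clonotypes in WT and 77.2% and 79.4% in Igll1-/- libraries, which overlapped (exact permutation test, two-sided, p = 0.667). CDR3s of 10 residues were fewer in both Igll1-/- libraries, at 8.05% and 6.44% against 8.96% and 8.48%. Of the 20 amino acids, 10 did not overlap between genotypes. Tryptophan made up 3.64% and 3.77% of CDR3 residues in WT and 4.65% and 4.86% in Igll1-/- libraries, and glycine 4.63% and 4.37% against 3.64% and 3.68%. Asparagine was higher (2.46% and 2.87% against 3.18% and 3.06%), and methionine (0.557% and 0.538% against 0.387% and 0.401%) and leucine (7.60% and 7.44% against 7.06% and 6.87%) were lower, without overlap. Residues encoded by the V genes enter these shares, so they also move with V gene usage, whose part in them was not tested. Over all 38 measures of CDR3 length and composition 23 did not overlap (60.5%), and none could fall below p = 0.333 in the exact permutation test.

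Residue 8 of a CDR3 of 9 residues lies at the V-J joint. It was tyrosine in 17.2% and 18.9% of such clonotypes in WT and in 14.5% and 14.1% in Igll1-/- libraries. Tryptophan there went from 11.1% and 11.3% to 12.2% and 16.5%, and phenylalanine from 3.45% and 3.68% to 4.95% and 4.67%. Over the 4 libraries, tyrosine stood there in 61.8% of IGKJ2 and tryptophan in 51.9% of IGKJ1 clonotypes, so these values move with J usage, whose part in them was not tested. Among clonotypes with at least 2 reads tryptophan overlapped.

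Productive rearrangements made up 86.4% and 86.7% of clonotypes in WT and 86.8% and 87.1% in Igll1-/- libraries, a difference of 0.360 percentage points (exact permutation test, two-sided, p = 0.333). The tables keep joints with both CDR3 anchor residues in frame, so this is a share of such joints and not of all rearrangements. By reads, 95.3% were productive in both WT libraries and 97.2% and 98.6% in the Igll1-/- libraries. IGKV9-128 was unproductive in nearly all of its clonotypes, and its unproductive reads were 3.38% and 3.68% of all reads in WT against 0.0519% and 0.190% in Igll1-/- libraries. Without IGKV9-128, a choice made after its values were seen, 89.6% and 90.6% of clonotypes were productive in WT and 87.3% and 87.8% in Igll1-/- libraries. Igll1-/- replicate 1 held 182 unproductive IGKV8-30 clonotypes of 27 residues, against 1 to 7 in the other libraries. A single one held 2551 of their 3154 reads, and the rest may be read variants of it. Without these clonotypes too, also chosen after the values were seen, the productive share of Igll1-/- replicate 1 was 90.2%, between the WT libraries.

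V genes were then tested separately in productive clonotypes and in those marked unproductive. The deposited mark appears to be that of a representative sequence and differed between libraries for 4.31% of clonotypes found in at least 2. Among productive clonotypes 14 of 79 V genes passed (17.7%), and among unproductive ones 8 of 32 (25.0%) (edgeR). IGKV14-126 was lower in both, with 325 and 336 productive clonotypes in WT against 39 and 50 in Igll1-/- libraries and 29 and 32 unproductive ones against 0 and 1. IGKV15-103 was higher in both, with 114 and 121 productive clonotypes against 259 and 256 and 21 and 16 unproductive ones against 85 and 61. IGKV1-110 rose from 9 and 11 unproductive clonotypes to 23 and 35, and IGKV4-53 from 7 and 9 to 18 and 24. IGKV9-128 and IGKV8-28 fell among the unproductive, and IGKV14-111 and IGKV6-23 rose. Reads of IGKV14-126 went the same way as its unproductive clonotypes, from 24802 and 24715 to 535 and 727. Those of IGKV15-103 did so too, from 4961 and 5620 to 18322 and 14343. Rows near-identical to a 10-fold larger one made up 59.3% to 62.1% of each library. Whether unproductive clonotypes were read variants of large productive ones was not tested.

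The interaction of genotype and productivity passed for 0 of 27 V genes tested in both kinds (0.0%, edgeR), with 3 at an unadjusted p under 0.05 (11.1%), IGKV14-126, IGKV15-103 and IGKV1-110. It passed for 1 gene without WT replicate 2 and for 2 without Igll1-/- replicate 2. With at least 2 reads per clonotype, 2 V genes could be tested for the interaction and 0 passed. Over all clonotypes, the interaction (productive minus unproductive log2 fold change) was 2.92 for IGKV14-126, −0.88 for IGKV15-103 and −0.96 for IGKV1-110. In these the genotype difference was thus larger among unproductive clonotypes. Without Igll1-/- replicate 2 the interaction was −2.56 for IGKV8-30, the gene of the clonotypes of 27 residues in Igll1-/- replicate 1.

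Reads were held by fewer clonotypes in Igll1-/- B-1a libraries. Of all reads 50% lay on 36 and 33 clonotypes in WT and on 25 and 26 in Igll1-/- libraries, against 77 and 76 in WT B-2 libraries. Of all reads 90% lay on 428 and 439 clonotypes in WT and on 301 and 285 in Igll1-/- libraries. The 100 largest clonotypes held 69.6% and 70.2% of reads in WT and 76.9% and 76.4% in Igll1-/- libraries. Clonotypes with at least 10 reads numbered 1082 and 1050 against 820 and 893. At an equal number of 214000 reads, 6239 and 6441 clonotypes were expected in WT and 5701 and 6006 in Igll1-/- libraries. Both Igll1-/- libraries were lower or more concentrated in each of these, as in 8 of 11 measures of clone size (72.7%), each at the smallest p of 0.333 (exact permutation test, two-sided).

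**Figure D4:**
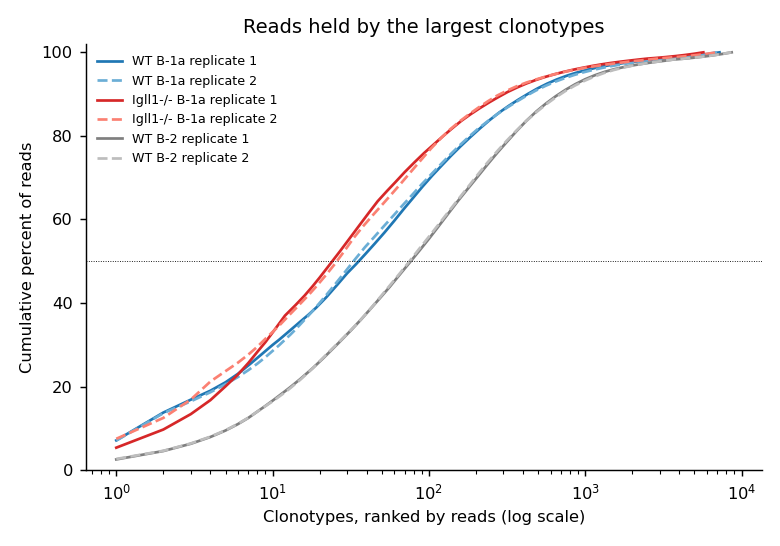
Cumulative percent of reads (vertical axis) held by the clonotypes of each of the 6 libraries, ranked by reads (horizontal axis, log scale). The dotted line marks 50% of reads, which the Igll1-/- B-1a libraries reach at 25 and 26 clonotypes and the WT B-1a libraries at 36 and 33.

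The clones of the WT B-1a libraries resembled each other more than those of the Igll1-/- libraries did. The WT replicates shared 2764 clonotypes, 38.8% and 40.3% of each library, and 26.9% of reads would have to move to other clonotypes to match them. The Igll1-/- replicates shared 2007, 35.9% and 29.4% of each, and 56.5% of reads would have to move. Between a WT and an Igll1-/- library this was 55.2% to 57.2%, a range that holds the value between the Igll1-/- replicates. Beside it, 41.0% to 44.6% of reads would have to move between a WT B-1a and a WT B-2 library. Between an Igll1-/- B-1a and a WT B-2 library the range was 52.2% to 55.9%. Among clonotypes with at least 10 reads the WT replicates shared 62.5% and 63.9% and the Igll1-/- replicates 47.7% and 44.0%. These pairs share libraries, so no test was made.

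Most productive clonotypes well read in both WT libraries were present in both Igll1-/- libraries, and 45.0% were also well read there. Of 638 productive clonotypes with at least 10 reads in both WT libraries, 458 were present in both Igll1-/- libraries (71.8%). A further 112 were present in 1 and 68 in neither (10.7%). Both B-2 libraries held 569 of all 638 (89.2%), but only 36 of these 68. At least 10 reads in both Igll1-/- libraries were reached by 287 of the 638 (45.0%). In the other direction, 362 of 378 productive clonotypes with at least 10 reads in both Igll1-/- libraries were present in both WT libraries (95.8%). Of the 378, 6 were in neither (1.59%), and 369 were present in both B-2 libraries (97.6%). WT libraries were deeper in clonotypes, which the count of absences does not adjust for. Each set was chosen by at least 10 reads in both libraries of 1 genotype, so its share there is complete by choice. These shares therefore do not measure a genotype difference. How alike the choosing libraries were also shapes each set, so the directions are not compared.

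Among 1257 productive clonotypes tested by reads, 1 passed with edgeR (0.0796%), 0 were higher (0.0%), 258 had an unadjusted p under 0.05 (20.5%), and 557 did not overlap between genotypes (44.3%). The clonotype that passed was IGKV14-126 IGKJ2 LQHGESPYT, at 18300 and 17325 reads in WT and 123 and 138 in Igll1-/- libraries (log2 fold change −6.99 ± 0.42, edgeR adjusted p = 0.0022), and at 1025 and 914 in WT B-2 libraries. DESeq2 gave 149 of 1013 (14.7%), 114 of them lower in Igll1-/- libraries (11.3%), among them LQHGESPYT.

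The largest clonotype of a WT library, IGKV4-91 IGKJ5 QQGSSIPLT, had 19597 and 16055 reads against 1374 and 6847 (log2 fold change −2.12 ± 0.64, edgeR adjusted p = 0.15). Named after its values were seen, IGKV4-91 IGKJ2 QQGSSIPYT had 3339 and 2960 against 18 and 77 (edgeR adjusted p = 0.12), and IGKV7-33 IGKJ5 AQFYSYPLT 3390 and 4240 against 17 and 133 (edgeR adjusted p = 0.14). In these both Igll1-/- libraries were below both WT libraries. With DESeq2, QQGSSIPYT and AQFYSYPLT passed (adjusted p = 6.6e-08 and 3.1e-05) and QQGSSIPLT did not (adjusted p = 0.16).

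The largest clonotypes of the Igll1-/- libraries differed from each other. Igll1-/- replicate 1 was led by IGKV15-103 IGKJ5 QQGQSYPLT, with 5.37% of its reads (11494) against 2.02% (5540) in replicate 2 and 0.849% and 1.47% in WT, where edgeR gave a log2 fold change of 1.67 ± 0.58 (adjusted p = 0.19). Igll1-/- replicate 2 was led by IGKV3-7 IGKJ1 QHSWEIPWT, with 20562 reads, where replicate 1 had 335 and WT libraries 218 and 416, so the genotypes overlapped. Replicate 1 held IGKV3-7 with IGKJ1 mainly as QHSWEIPRT instead, with 7925 reads against 165 in replicate 2 and 97 and 68 in WT. IGKV1-110 IGKJ1 SQSTHVPWT had 4817 and 12088 reads against 2199 and 2092 (log2 fold change 2.01 ± 0.46, edgeR adjusted p = 0.14). SQSTHVPWT, QHSWEIPWT and QHSWEIPRT passed with DESeq2 (adjusted p = 0.040, 0.0098 and 0.0021). IGKV4-57-1 IGKJ5 QQYSGYPLT and IGKV4-60 IGKJ5 QQWSSSPLT had 9294 and 5731 reads in replicate 1 against 44 and 18 in replicate 2. In WT libraries the former had 5545 and 3777 reads and the latter 695 and 706, so the genotypes overlapped for both. IGKV4-53 IGKJ5 QQWSSYPLT was among the 5 largest clonotypes of all 4 B-1a libraries, at 5882 and 4683 reads in WT and 7146 and 13719 in Igll1-/- libraries.

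Without WT replicate 1 or 2, no clonotype passed with edgeR, without Igll1-/- replicate 1 there were 14 and without Igll1-/- replicate 2 there were 7. QQGSSIPLT passed without Igll1-/- replicate 2 (log2 fold change −3.41, edgeR adjusted p = 0.030) and did not without Igll1-/- replicate 1 (−1.45, adjusted p = 0.097).

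**Figure D5:**
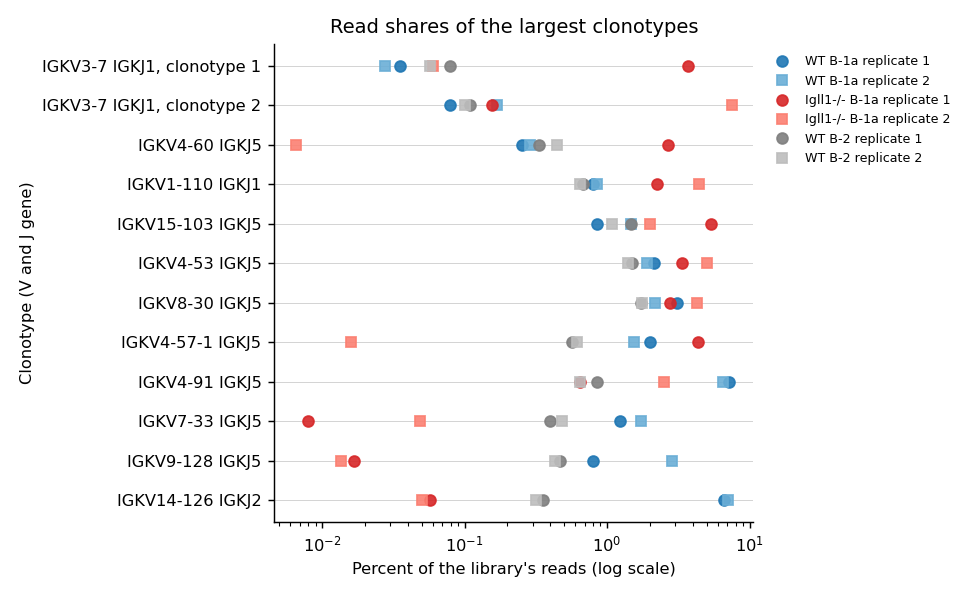
Percent of the library's reads (horizontal axis, log scale) in 12 clonotypes, named by V and J gene (vertical axis), that are among the 3 largest of a B-1a library or were chosen after their values were seen, with a point for each of the 6 libraries. IGKV14-126 with IGKJ2 stands at 6.65% and 7.07% in the WT B-1a libraries and at 0.0575% and 0.0503% in the Igll1-/- libraries, while the points of both Igll1-/- libraries are far apart for IGKV3-7 with IGKJ1.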

How the data were processed

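Igk rearrangements were amplified from genomic DNA of sorted cells by a degenerate V primer with added primers for some B-1a genes, IGKV4-91 included, so shares also depend on primers. The authors assigned reads with IMGT/HighV-QUEST and deposited, for each library, counts of reads per clonotype. Versions and the build are not given in the sources used here. The labels and the methods name different Illumina sequencers for these libraries. The mice behind the libraries are not named, so p-values measure the spread between libraries, which may be technical.

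Each row counted once unless reads are named. Rows with several V genes, 5.56% to 6.55% per library, stayed in the totals. Clonotype counts per V gene, family and V-J combination, and reads per clonotype, were tested with edgeR 4.0.16 (R 4.3.3) quasi-likelihood fits over 6 libraries. Totals were the library size and features needed at least 10 counts in at least 2 libraries. Groups of features were adjusted with Benjamini-Hochberg at 0.05, and DESeq2 1.42.0 was an alternative. Single values were compared with exact permutation tests (scipy 1.17.1). A floor of 3 clonotypes corresponds to 0.0415% to 0.0526% of a B-1a library, and shares have 95% Wilson intervals. For reads per clonotype and for well-read clonotypes, a clonotype was called productive where most of its reads over the 6 libraries were marked so. All other results on productive and unproductive clonotypes used the deposited mark of each row. The functionality mark differed between libraries for 335 of 7771 clonotypes found in at least 2 (4.31%). Fits were tested on simulated data.

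V genes named were those passing (at most 10 per direction) with IGKV4-91, IGKV14-126 and IGKV7-33. At most 6 V-J combinations per direction were named, those with the largest change in percent of clonotypes among combinations that passed without overlap. Clonotypes named were those that passed likewise and the largest of each library. Families named had at least 1% in a library. These lists were chosen with earlier results of these data known. Alternatives were reads in place of clonotypes, minimum reads, productive clonotypes, merging each CDR3 into a 10-fold more abundant one that differed at no more than 1 residue (59.3% to 62.1% of rows per library), TMM, DESeq2, no filter, B-1a libraries alone, a replicate block and leaving out each library.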

Additional observations from a re-analysis of the deposited data

How the results depend on the processing

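Leaving out 1 library gave 7 to 31 V genes (15 with all), 2 to 8 families (5 with all), 1 to 41 V-J combinations (21 with all), 0 to 14 clonotypes (1 with all) and 0 to 2 V genes for the interaction of genotype and productivity (0 with all), and a library left alone in its group is assumed to vary like the others. Families were 3 with DESeq2, 3 in the B-1a libraries alone and 3 without IGKV9-128, IGKV14-126 and IGKV3-7, added after the data were seen. V-J combinations were 11 by reads, 12 with at least 2 reads, 8 with at least 10 reads and 9 after merging. Clonotypes were 149 with DESeq2, 0 in the B-1a libraries alone and 6 with at least 100 reads.

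With the replicate number as a block (replicate block), 17 V genes, 5 families, 17 V-J combinations and 1 clonotype passed. Over 84 V genes, same-numbered libraries deviated from their group means with r = 0.032, so the numbers were not taken to pair the libraries.

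Some families reversed direction (log2 fold changes). IGKV10 was at −0.021 after merging and between −0.0397 and 0.226 with 1 library left out. IGKV11 was between −0.393 and 0.352 with 1 library left out and at 0.31 by reads, and IGKV2 at 0.13 by reads. IGKV14 was at 0.0165 after merging and 0.78 without the 3 genes, and IGKV9 at 0.19 without them. IGKV16 was between −0.141 and 0.622 with 1 library left out and at −0.505 with at least 10 reads. IGKV4 was at 0.0308 after merging. IGKV8 was at −0.0125 with TMM, between −0.0451 and 0.184 with 1 library left out, at −0.0895 in productive clonotypes and at −0.155 after merging. The cause was not tested in any of these.

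Of 31 measures with 1 value per library, 24 kept their direction. In percentage points (Igll1-/- minus WT), IGKJ5 reversed to 1.34 with at least 2 reads, 1.25 with at least 10, 1.40 after merging, and lay between −3.74 and 0.111 with 1 library left out. V genes 1 to 35 reversed to −0.847 after merging, and V genes 100 and above to −2.17 by reads, −1.74 with at least 10 reads, and lay between −0.492 and 1.99 with 1 library left out. The median V number was 0.5 higher after merging. The productive share reversed to −2.53 without IGKV9-128, −0.808 by reads without it and −1.12 also without the IGKV8-30 clonotypes of 27 residues, choices added after the data were seen. CDR3s of 9 residues reversed to −0.197 by reads, and leucine at residue 8 to −0.978 by reads, and lay between −1.46 and 3.13 with 1 library left out. Reads to move between genotypes were 54.8% in productive clonotypes, against 56.1%. With 2 libraries per genotype no exact test can pass, and at this depth a share under 0.0526% of clonotypes was not measurable in every B-1a library.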

Other observations

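CDR3s over 20 residues numbered 302 and 187 clonotypes in WT and 308 and 135 in Igll1-/- B-1a libraries. In Igll1-/- replicate 1, 182 of them were unproductive IGKV8-30 clonotypes of 27 residues, where the other 5 libraries held 1 to 7 such clonotypes. The largest held 2551 of the 3154 reads of these 182, and whether the rest were read variants of this 1 join was not tested. IGKV8-30 was productive in 49.0% of its clonotypes in that library and in 83.9% to 86.5% in the other B-1a libraries. Clonotypes with a stop codon in CDR3 made up 10.5% in Igll1-/- replicate 1 and 7.35%, 6.89% and 7.29% in WT replicates 1 and 2 and Igll1-/- replicate 2.

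LQHGESPYT of IGKV14-126 with IGKJ2, the single clonotype that passed with edgeR, was marked unproductive in WT B-2 replicate 2 and productive in the other libraries.

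IGKV6-23 with IGKJ1, which passed and came 1 place outside the 6 largest rises in percent of clonotypes, held 8 and 6 clonotypes in WT and 40 and 28 in Igll1-/- B-1a libraries (log2 fold change 2.46, edgeR adjusted p = 0.014).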
